A study of Homo sapiens with 7 samples.

Results

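The genes described are 39 members of the homologous recombination and Fanconi anemia repair pathways, taken by gene symbol from a list drawn up when earlier results of these data were known, out of 21305 genes in the table. All 39 had a mean of at least 10 normalized counts over the libraries and were tested, as were 15420 genes in all. RNA came from 501Mel, a human melanoma line of the melanocytic, differentiated kind, made to carry an shRNA (a short hairpin RNA that the cell turns into a small guide against a matching transcript) that is switched on by doxycycline. The 7 libraries were 3 with the shlacZ hairpin, a control against a bacterial gene, 2 with the hairpin sh4 and 2 with the hairpin sh8, both of which target the long non-coding RNA GRASLND. Cells of every group, the control included, were dox-induced. Each line was a pool of lentivirally transduced cells selected with puromycin, and each hairpin was thus tested in 1 such line. The labels do not say whether replicates were separate cultures, so p-values measure only the spread between these libraries. The comparison asks what happens to these genes when GRASLND is lowered, and whether the 2 hairpins do the same.

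Homologous recombination repairs a broken chromosome by copying the intact sister chromatid and is therefore used mainly in S and G2 phase. The ends are sensed and cut back to single strands, BRCA proteins prepare these strands for exchange, accessory factors help them invade the sister, and the joined molecules are then taken apart. The Fanconi pathway opens crosslinks between the DNA strands: a core complex attaches ubiquitin to the FANCD2-FANCI pair, and the break made at the crosslink is handed to recombination. Many of these genes are known as targets of E2F and of other cell cycle factors, and inherited loss of several of them predisposes to cancer or causes Fanconi anemia.

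Levels are given as normalized counts throughout. GRASLND was measured at 309, 329.9 and 289.7 in the shlacZ libraries, 175 and 131 under sh4, and 227 and 163 under sh8. All 4 knockdown libraries lay below all 3 control libraries, with the log2 fold change at -1.02 (SE 0.21, adjusted p = 0.00662) under sh4 and -0.68 (SE 0.21, adjusted p = 0.11) under sh8, so the second did not pass the test. Between 13337317 and 22855232 reads per library were recovered from the table. The first shlacZ library differed from the other two by a mean chi-square per gene of 34.96 to 38.2, whereas these differed from each other by 9.99, and 18 of the 39 members had their highest value of all libraries in it. All 7 melanocytic markers, MITF, MLANA, PMEL, TYR, TYRP1, DCT and SOX10, were expressed. Of 8 markers of other cell types 2 were in the table, COL1A1 at 5 to 22 reads and CD68 at 441 to 675 normalized counts. The summed melanocytic markers were 135575 to 146343 normalized counts in the shlacZ libraries, 51868 and 59737 under sh4, and 101544 and 104484 under sh8.

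Under sh4, 14 of the 39 members fell and 0 rose at a limma adjusted p under 0.05, where 11.9% of all genes tested fell and 10.5% rose. The log2 fold changes of the 39 ran from -1.004 to 0.34 with a median of -0.34, against a median of -0.0076 over all genes tested. The deepest were -1.004 for XRCC2, -0.99 for CHEK2, -0.94 for RAD54L, -0.77 for XRCC3 and -0.74 for EXO1. XRCC2 was also the only member past the added limit of the study, an absolute log2 fold change over 1, which 3.37% of all genes tested passed downwards. Under sh8, 1 member fell, the BRCA2 partner PALB2, and 0 rose, where 1.54% of all genes fell and 1.38% rose. The median under sh8 was -0.24 against -0.0099 over all genes. At an unadjusted p under 0.05, 17 members were lower and 0 higher under sh8, where 9.69% of all genes were lower and 8.85% higher. Under sh4, 19 were lower and 0 higher at that limit, where 18.9% of all genes were lower and 17.2% higher.

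With both hairpins pooled (n = 4 against 3), PALB2 and RAD54L fell and 0 members rose, where 2.06% of all genes tested fell and 2.55% rose. The median was -0.27 against -0.0063 over all genes, and 18 members were lower and 0 higher at an unadjusted p under 0.05, as were 12.9% and 11.2% of all genes. This 2-level fit counts the difference between hairpins as error. The mean of both hairpins taken from the 3-group fit gave 12 members lower, which were BRCA1, PALB2, XRCC2, XRCC3, RAD51AP1, RAD54L, RAD54B, EXO1, BLM, RMI1, UBE2T and CHEK2. That fit called 8.77% of all genes lower. All 4 knockdown libraries lay below all 3 shlacZ libraries for 18 members and above them for 0, where this held for 11.0% and 10.2% of all genes tested.

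**Figure D1:**
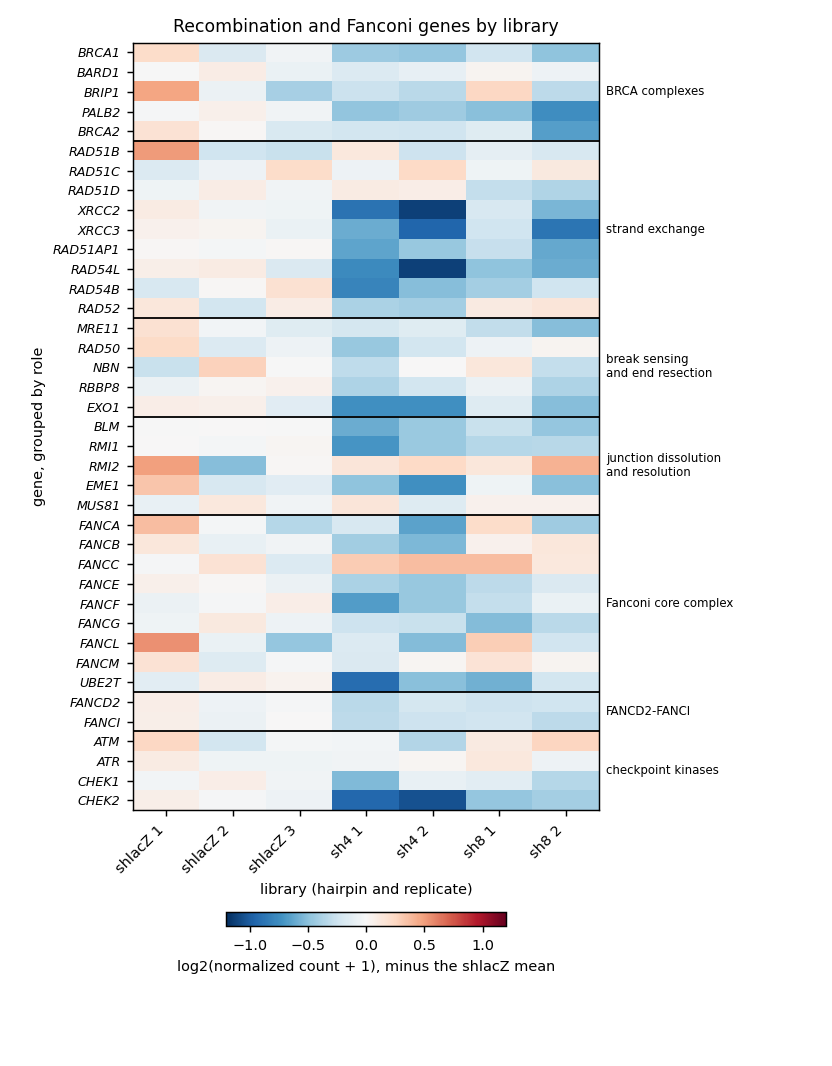
Each row is a member gene, grouped by role, and each column a library, and the color gives log2(normalized count + 1) minus the mean of that gene over the 3 shlacZ libraries. The deepest blue sits under sh4 in XRCC2, RAD54L and CHEK2, the sh8 columns are paler, and the first shlacZ library is red for BRIP1, RAD51B, RMI2, FANCA and FANCL.

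To show the promoter sequence of members that fell, the last 100 bases before the RefSeq start (GRCh38.p14) are given for 5 of them, read 5′ to 3′ on the strand of the gene. CHEK2, RAD54L and PALB2 are shown as members with a CCAAT match, RMI1 as the 1 with an E2F match in this stretch, and XRCC2 as the deepest fall, which has neither there. They lie at chr22:28741821-28741920 (minus), chr1:46247663-46247762 (plus), chr16:23641311-23641410 (minus), chr9:83980705-83980804 (plus) and chr7:152676142-152676241 (minus). Capitals mark CCAAT or an E2F word, on either strand.
CHEK2: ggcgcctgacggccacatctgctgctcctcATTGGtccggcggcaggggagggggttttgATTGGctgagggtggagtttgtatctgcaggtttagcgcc
RAD54L: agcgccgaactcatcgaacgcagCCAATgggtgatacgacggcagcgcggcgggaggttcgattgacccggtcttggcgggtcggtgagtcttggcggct
PALB2: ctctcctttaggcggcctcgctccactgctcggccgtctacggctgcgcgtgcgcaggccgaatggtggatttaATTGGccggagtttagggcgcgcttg
RMI1: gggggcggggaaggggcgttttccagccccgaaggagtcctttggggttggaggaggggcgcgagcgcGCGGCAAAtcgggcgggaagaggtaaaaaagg
XRCC2: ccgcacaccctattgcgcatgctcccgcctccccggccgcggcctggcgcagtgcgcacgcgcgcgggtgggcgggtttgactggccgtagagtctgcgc

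Over the whole RefSeq windows, which run from 250 bases before to 50 after the start, 4 motifs were searched on both strands: the E2F words TTTCCCGC, TTTCGCGC, TTTGCCGC and TTTGGCGC, the CHR words TTTGAA and TTCGAA (a cell cycle element), CCAAT (the core bound by NF-Y) and the GC box GGGCGG. A window was found for 35 members and for 10444 of the genes tested. The window starting nearest to the canonical GENCODE transcript was taken for each gene. For the members the distance between these starts had a median of 0 and reached 3762 bases. The members without one were FANCI, NBN, RAD54B and RMI2. An E2F word was present in 17.1% of the members' windows and in 5.66% of those of the genes tested. Its members were EXO1, RMI1 and XRCC2 among those that fell under sh4, with the words of EXO1 and XRCC2 lying after the start, and FANCA, FANCC and FANCD2 among the others. CCAAT was present in 45.7% of the members' windows and in 38.0% over the genes tested. By call it was present in 9 of 13 windows (69.2%) of members that fell under sh4 and in 7 of 22 (31.8%) of the other members. The same split was 23.1% and 13.6% for the E2F words, 7.69% and 13.6% for the CHR words, and 76.9% and 68.2% for the GC box. Whether any of these shares differ was not tested. The CHR words (11.4% against 11.0%) and the GC box (71.4% against 72.9%) were about as frequent in the members as in the genes tested. These matches are letters in a window, with no measurement of binding.

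Of the genes that sense the break and cut back its ends, 1 of 5 fell under sh4 and 0 under sh8. EXO1, an exonuclease that extends the single strand over long distances (ENSG00000174371, chr1:241847967-241895148, plus strand of hg38), was at 1901, 1879 and 1642 in the shlacZ libraries, 1079.7 and 1081 under sh4, and 1624 and 1269 under sh8. Both sh4 libraries were below every other library, and the sh8 libraries were below the shlacZ range as well. The mean was 40.2% lower under sh4, with a log2 fold change of -0.74 (SE 0.14, adjusted p = 0.00471), and -0.33 (SE 0.14, adjusted p = 0.24) under sh8. The other 4 did not pass the test with either hairpin. MRE11, RAD50 and NBN form the complex that first binds the ends, and their log2 fold changes under sh4 were -0.18 (95% interval -0.48 to 0.12), -0.34 (95% interval -0.70 to 0.025) and -0.15 (95% interval -0.57 to 0.27). Under sh8 MRE11 was at -0.40 (SE 0.14, adjusted p = 0.15). RBBP8, which starts resection together with that complex, was at -0.30 (95% interval -0.59 to -0.0031) under sh4 and -0.22 (95% interval -0.51 to 0.074) under sh8. RAD50 shares 8124 of its 10565 exon bases with the gene ENSG00000283782 on the same strand, so its reads could be split.

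In the BRCA complexes, BRCA1 and PALB2 fell under sh4 and PALB2 also fell under sh8. PALB2 (ENSG00000083093, chr16:23603160-23641321, minus strand), the bridge between BRCA1 and BRCA2, was at 1993, 2093 and 1952 in the shlacZ libraries, 1447 and 1493 under sh4, and 1425 and 1200.4 under sh8. The groups did not overlap, and the sh8 libraries were the lowest. Its mean was 26.96% lower under sh4 and 34.8% lower under sh8, with log2 fold changes of -0.45 (SE 0.12, adjusted p = 0.0226) and -0.62 (SE 0.12, adjusted p = 0.025), and -0.54 (SE 0.12, adjusted p = 0.0346) for both hairpins together. BRCA1, a ubiquitin ligase subunit that helps resection, was at 3746, 2855 and 3115 in the shlacZ libraries, 2381 and 2335 under sh4, and 2747 and 2309 under sh8. All knockdown libraries lay below the control range, the first sh8 library only just, and the log2 fold change was -0.45 (SE 0.14, adjusted p = 0.045) under sh4 and -0.35 (SE 0.14, adjusted p = 0.217) under sh8. BARD1, the obligate partner of BRCA1, did not pass the test, at -0.13 (95% interval -0.41 to 0.14) under sh4 and -0.0096 (95% interval -0.29 to 0.27) under sh8. BRCA2, which acts on the single strands after resection, was at 4308, 3868 and 3374 in the shlacZ libraries, 3289 and 3238 under sh4, and 3473 and 2429 under sh8. Its second sh8 library was the lowest of all and the first lay within the control range, and neither hairpin passed the test, at -0.23 (SE 0.16, adjusted p = 0.343) for sh4 and -0.40 (SE 0.16, adjusted p = 0.23) for sh8. BRIP1, a helicase that binds BRCA1, differed 1.83 times between the lowest and the highest control library, and its interval under sh4 ran from -0.82 to 0.24.

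The strand exchange genes held the most calls, with 5 of 9 lower under sh4 and 0 under sh8, and a median log2 fold change of -0.54 and -0.33. XRCC2 (ENSG00000196584, chr7:152644776-152676193, minus strand), which acts in strand exchange, was at 1081, 985 and 975 in the shlacZ libraries, 547 and 465 under sh4, and 888 and 691 under sh8. Both sh4 libraries were below both sh8 libraries, which in turn were below the control. The mean under sh4 was 50.1% lower, with a log2 fold change of -1.004 (SE 0.15, adjusted p = 0.00158), while sh8 stood at -0.37 (SE 0.15, adjusted p = 0.226). RAD54L (ENSG00000085999, chr1:46246461-46278480, plus strand), a motor protein that moves along duplex DNA during strand invasion, was at 1004, 1021 and 849 in the shlacZ libraries, 562 and 439.6 under sh4, and 684 and 632 under sh8. The 3 groups did not overlap. Its log2 fold change was -0.94 (SE 0.15, adjusted p = 0.00244) under sh4, -0.54 (SE 0.15, adjusted p = 0.0939) under sh8 and -0.74 (SE 0.17, adjusted p = 0.0383) for both together. RAD51AP1, which stimulates the joining of strands, was at 774, 757 and 775 in the shlacZ libraries, 496 and 561 under sh4, and 634 and 502 under sh8. The control libraries lay within 1.02 times of each other and every knockdown library below them, at -0.54 (SE 0.14, adjusted p = 0.0229) under sh4 and -0.45 (SE 0.14, adjusted p = 0.133) under sh8.

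XRCC3, which also acts in strand exchange, was at 425, 420.0 and 387 in the shlacZ libraries, 272 and 211 under sh4, and 347 and 223 under sh8, with log2 fold changes of -0.77 (SE 0.21, adjusted p = 0.0246) and -0.56 (SE 0.21, adjusted p = 0.188). The second library of each hairpin was lower than the first. RAD54B, a relative of RAD54L, was at 476, 549 and 616 in the shlacZ libraries, 314 and 382 under sh4, and 409 and 461 under sh8, with log2 fold changes of -0.65 (SE 0.16, adjusted p = 0.0194) and -0.33 (SE 0.16, adjusted p = 0.33). Both are uncertain as to their reads: RAD54B shares 3511 of 5319 exon bases with FSBP on the same strand, and XRCC3 shares 5756 of 7507 with KLC1 on the opposite strand, where the use of strand in the counting is not stated. Reads of RAD54L could likewise be shared with LRRC41 on the opposite strand, over 813 of 4078 exon bases. RAD51B, RAD51C and RAD51D, which work in complexes with XRCC2 or XRCC3, did not pass the test, at -0.06 (95% interval -0.60 to 0.48) for RAD51B, 0.091 (95% interval -0.30 to 0.48) for RAD51C and 0.088 (95% interval -0.22 to 0.40) for RAD51D under sh4. RAD51D was lower under sh8, at -0.32 (SE 0.14, adjusted p = 0.248), without passing the test. RAD52, which anneals single strands, was at 163 and 159.7 normalized counts under sh4, below every other library, and at -0.39 (SE 0.18, adjusted p = 0.143), which did not pass.

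**Figure D2:**
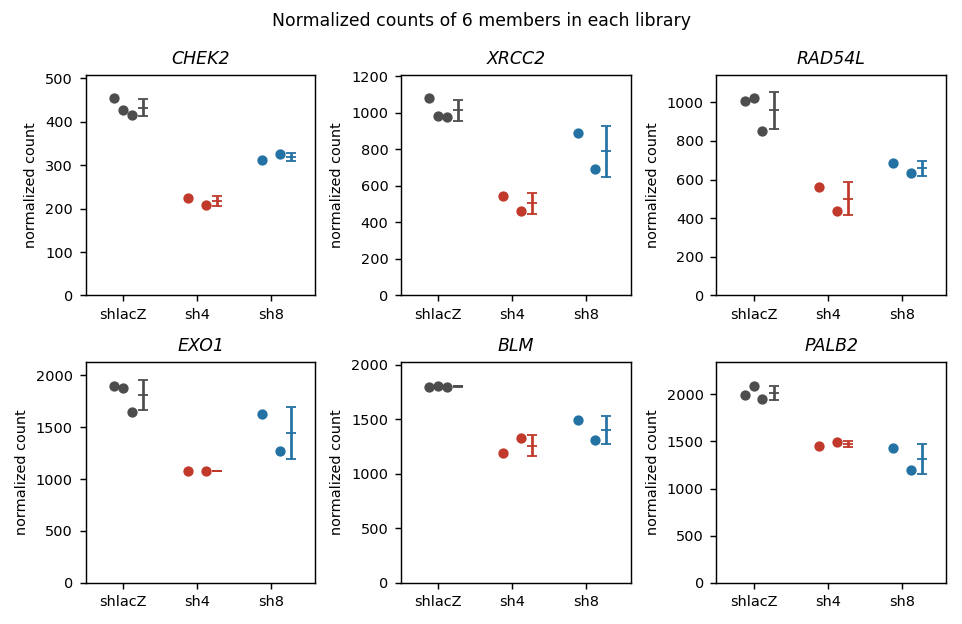
Points are normalized counts of 1 library each on an axis from 0, and the bar beside them is the mean ± SD of the group (n = 3, 2 and 2). In CHEK2, XRCC2, RAD54L and EXO1 the sh4 libraries are the lowest, in PALB2 the sh8 libraries are, and in all 6 genes no knockdown library reaches the control range.

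Among the genes that take joined molecules apart, BLM and RMI1 fell under sh4, 2 of 5, and 0 fell under sh8. BLM (ENSG00000197299, chr15:90717346-90816166, plus strand), the helicase mutated in Bloom syndrome, was at 1794, 1808 and 1796 in the shlacZ libraries, 1187 and 1323 under sh4, and 1493 and 1307 under sh8. The control libraries were within 1.01 times of each other and all knockdown libraries were lower, at -0.52 (SE 0.12, adjusted p = 0.0114) under sh4 and -0.36 (SE 0.12, adjusted p = 0.133) under sh8. RMI1, a scaffold of the same complex, was at 768, 752 and 778 in the shlacZ libraries, 469.8 and 561 under sh4, and 602 and 609.8 under sh8. It was lower in every knockdown library, at -0.58 (SE 0.13, adjusted p = 0.0119) and -0.34 (SE 0.13, adjusted p = 0.208). RMI2, a further subunit of that complex, had a positive fold change that did not pass the test, at 0.19 (95% interval -0.36 to 0.74) under sh4, with control values that differed 2.01 times. The nuclease MUS81-EME1 cuts the junctions that are not dissolved. EME1 was at 483, 337 and 349 in the shlacZ libraries, 274 and 231 under sh4, and 372 and 272 under sh8. Both sh4 libraries were below the control range, at -0.61 (SE 0.21, adjusted p = 0.063), which did not pass. MUS81 was at -0.0029 (95% interval -0.34 to 0.33) under sh4 and 0.053 (95% interval -0.28 to 0.39) under sh8.

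Of 9 genes of the Fanconi core complex, counted with its ubiquitin-conjugating enzyme UBE2T, 3 fell under sh4 and 0 under sh8. UBE2T (ENSG00000077152, chr1:202331544-202341984, minus strand), which supplies the ubiquitin, was at 535, 620.1 and 600.3 in the shlacZ libraries, 309 and 412 under sh4, and 390.2 and 501 under sh8. The first library of each hairpin was lower than the second and all were below the control, at -0.71 (SE 0.18, adjusted p = 0.018) under sh4 and -0.40 (SE 0.18, adjusted p = 0.262) under sh8. FANCF, an adaptor of the complex, was at 414, 432 and 461 in the shlacZ libraries, 272 and 317 under sh4, and 356 and 410.4 under sh8. The sh4 libraries were the lowest, at -0.56 (SE 0.15, adjusted p = 0.0245), and the second sh8 library lay just under the control range, at -0.19 (SE 0.15, adjusted p = 0.553) for that hairpin. FANCB, a partner of the ligase FANCL, was at 516, 442 and 458 in the shlacZ libraries, 351 and 323 under sh4, and 488 and 518 under sh8. It was low under sh4, at -0.48 (SE 0.14, adjusted p = 0.0357), and within or above the control range under sh8, at 0.094 (SE 0.14, adjusted p = 0.771).

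The rest of the core complex did not pass the test with either hairpin. FANCE, which contacts FANCD2, came nearest under sh4, at -0.41 (SE 0.14, adjusted p = 0.0658), and FANCG, a scaffold with FANCA, under sh8, at -0.42 (SE 0.15, adjusted p = 0.175). FANCC had the highest fold change of all 39 members under sh4, at 0.34 (95% interval -0.014 to 0.69), and was at 0.25 (95% interval -0.10 to 0.60) under sh8. FANCM, the motor protein that recognizes the stalled fork, was at -0.072 (95% interval -0.38 to 0.24) under sh4. FANCA and FANCL, the ubiquitin ligase itself, were wide in the control, with FANCL at 4674, 3026 and 2327 in the shlacZ libraries, 2856 and 2235 under sh4, and 3927 and 2736 under sh8, and their sh4 intervals ran from -0.96 to 0.13 and from -0.93 to 0.25. The substrate pair was lower in all 4 knockdown libraries than in any control. FANCD2 was at 2965, 2687 and 2775 in the shlacZ libraries, 2237 and 2424 under sh4, and 2367 and 2374 under sh8, and FANCI at 5079, 4613 and 4853 in the shlacZ libraries, 3886 and 4088 under sh4, and 4131 and 3899 under sh8. Their log2 fold changes were small and close together, at -0.27 (SE 0.11, adjusted p = 0.103) and -0.28 (SE 0.11, adjusted p = 0.0852) under sh4 and -0.24 (SE 0.11, adjusted p = 0.268) and -0.27 (SE 0.11, adjusted p = 0.213) under sh8, and did not pass. FANCD2 has pseudogene copies that could share its reads.

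Of the 4 checkpoint kinases, CHEK2 fell under sh4 and 0 fell under sh8. CHEK2 (ENSG00000183765, chr22:28687743-28742422, minus strand), which ATM activates at breaks, was at 454, 427 and 415 in the shlacZ libraries, 225 and 209 under sh4, and 312 and 326 under sh8. The 3 groups did not overlap, with sh8 between the others. The mean was 49.8% lower under sh4 and 26.2% lower under sh8, with log2 fold changes of -0.99 (SE 0.14, adjusted p = 0.00139) and -0.44 (SE 0.14, adjusted p = 0.143). CHEK2 has near-identical pseudogene copies, and how the counting treated their reads is not stated. CHEK1, activated by ATR at stalled forks, was at 1333, 1438 and 1325 in the shlacZ libraries, 943 and 1284 under sh4, and 1248 and 1077 under sh8. All knockdown libraries were below the control range, the first sh4 library farthest, and the log2 fold change was -0.31 (SE 0.15, adjusted p = 0.17) under sh4. The upstream kinases were nearer to the control. ATR was at 3838, 3470.1 and 3461 in the shlacZ libraries, 3475 and 3651 under sh4, and 3904 and 3438 under sh8, with overlapping groups and log2 fold changes of -0.0096 (95% interval -0.26 to 0.24) under sh4 and 0.031 (95% interval -0.22 to 0.28) under sh8. ATM was at -0.19 (95% interval -0.55 to 0.16) under sh4 and 0.18 (95% interval -0.17 to 0.54) under sh8.

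**Figure D3:**
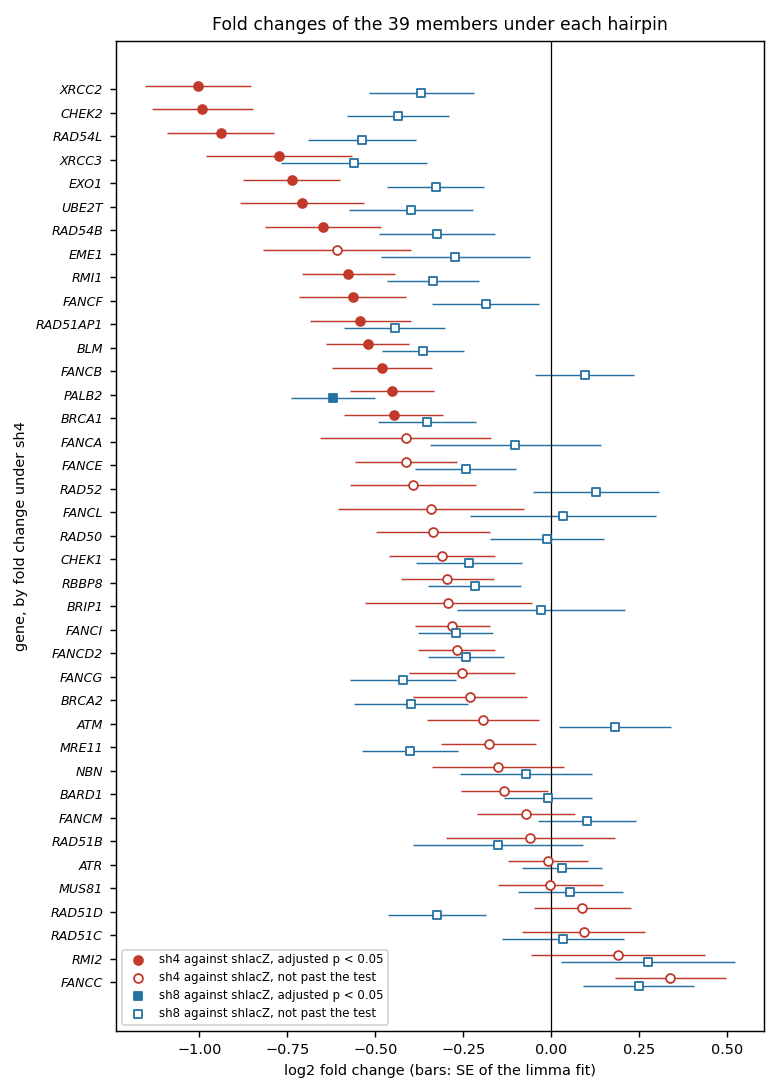
Points are log2 fold changes against shlacZ of the 39 members, in red for sh4 and blue for sh8, with bars of 1 SE of the limma fit; filled points passed an adjusted p under 0.05. The 14 filled red points run from -1.004 for XRCC2 to -0.45 for BRCA1, and PALB2 is the 1 filled blue point. Both sets share the 3 shlacZ libraries.

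Compared directly, sh4 and sh8 differed in 1 member, XRCC2, which was lower under sh4 by a log2 difference of -0.63 (SE 0.16, adjusted p = 0.047). Of all genes tested 3.33% were lower and 3.67% higher under sh4 than under sh8. CHEK2 and FANCB, at -0.56 (SE 0.16, adjusted p = 0.0647) and -0.58 (SE 0.16, adjusted p = 0.0547), did not pass, nor did RAD52 at -0.52 (SE 0.20, adjusted p = 0.149) or EXO1 at -0.41 (SE 0.15, adjusted p = 0.14). RAD51D was the member farthest the other way, at 0.41 (SE 0.15, adjusted p = 0.141). For most of the 14 members that fell under sh4, a difference between the hairpins was therefore not shown. Their log2 fold changes under sh8, set against the same control libraries, ran from -0.62 for PALB2 to 0.094 for FANCB. Their median was -0.37 under sh8 and -0.61 under sh4, but they were picked by their call under sh4, which favors a deeper median there. Over all 39 members the medians were -0.24 under sh8 and -0.34 under sh4.

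The calls under sh4 rested on 2 libraries. Over all genes tested, 11.9% were lower under sh4, and 17.2%, 7.41% and 7.28% without shlacZ library 1, 2 and 3. That share also fell without either sh4 library. XRCC2, CHEK2, RAD54L and EXO1 passed when any 1 library was left out and under all 11 other ways of processing that keep the call rule. BLM and RMI1 were lost only without the first sh4 library (adjusted p = 0.101 and 0.115). The other 8 were lost on leaving out 3 to 6 of the 7 libraries, among them the first sh4 library for all 8. The count of members lower under sh4 was 4 without that library, 7 without the second sh4 library, 7 without the second and 7 without the third shlacZ library, and 12 or 13 without any of the others. PALB2 under sh8 was lost without either sh8 library and when shlacZ library 2 or 3 was dropped. XRCC2 in sh4 against sh8 was kept only without the first shlacZ library, where 3 members and 6.21% of all genes tested were lower. For both hairpins together the count fell to 0 when any 1 of the shlacZ or sh4 libraries was dropped, and was 8 without the first sh8 library and 2 without the second. Of all genes tested, 0.123% to 2.20% were lower without 1 of the shlacZ or sh4 libraries. Without the first and the second sh8 library it was 3.36% and 1.98%, against 2.06% with all libraries.

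Members that fell under sh4 and those that did not had a median level in the control of 767 and 882 normalized counts and a median GC content of 42.1% and 41.8%. Their canonical transcripts had median lengths of 3184.5 and 4622 bases. The median SD of the log2 values among control libraries was 0.080 in those that fell and 0.17 in the other 25, and this SD enters the test. Per kilobase of canonical transcript, control levels ran from 40.3 normalized counts for RAD51D to 1024 for FANCI and 2016 for FANCL, with UBE2T at 666, EXO1 at 524, PALB2 at 502, CHEK2 at 234 and XRCC2 at 212. FANCL is uncertain on this scale, since its annotated exons cover 37977 bases and its canonical transcript 1658. The place of RAD51D depends on its canonical transcript of 9966 bases. Its mean control level of 402 normalized counts was above the 363 of RAD51C, which stood at 142 per kilobase. Members that fell under sh4 had mean control levels of 411 to 3239 normalized counts, within the 213 to 10700 of all 39.

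**Figure D4:**
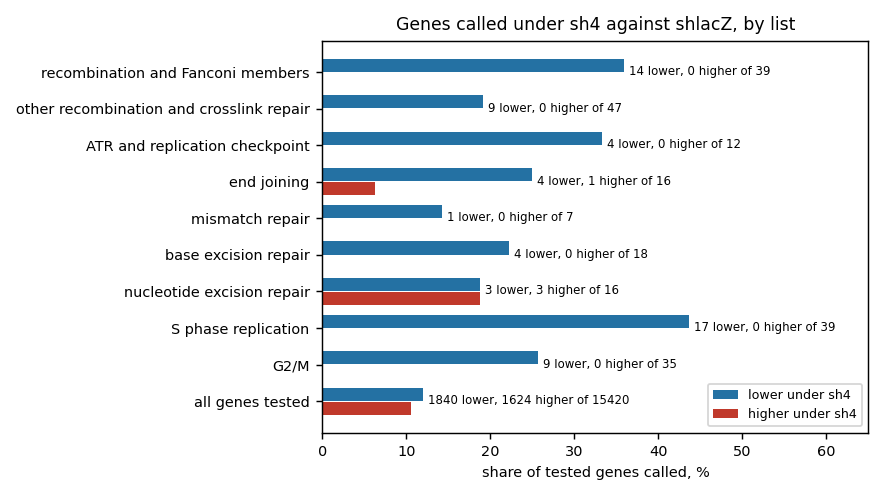
Bars give the share of tested genes of each list that passed an adjusted p under 0.05 in sh4 against shlacZ, blue for lower and red for higher, with the counts beside them. The members (14 of 39) and the S phase replication genes (17 of 39) have the highest shares of lower genes, and all genes tested show 1840 lower and 1624 higher of 15420.

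Other genes of these and related pathways were counted in lists. Of 48 further recombination and crosslink repair genes, 47 were tested, and 9 fell and 0 rose under sh4, with a median log2 fold change of -0.14. The 9 became 1 without the first sh4 library, 2 without the second, 1 without shlacZ library 2 or 3, and 5 without the second sh8 library. MDC1, which binds the chromatin beside a break, was at 4074, 3779 and 3798 in the shlacZ libraries, 2197 and 2262 under sh4, and 3179 and 3193 under sh8. All knockdown libraries were below the control and the sh4 libraries lowest, at -0.80 (SE 0.10, adjusted p = 0.000822) under sh4 and -0.52 (SE 0.11, adjusted p = 0.0255) for sh4 against sh8. The call for sh4 against sh8 was lost when either sh4 library, either sh8 library or shlacZ library 3 was dropped. It was also lost without the variance trend of the test. CENPS, a partner of FANCM that also sits at centromeres, was at 186, 236 and 243 in the shlacZ libraries, 257 and 239 under sh4, and 111 and 106 under sh8. It fell under sh8, at -1.01 (SE 0.19, adjusted p = 0.021), while sh4 stood at 0.17 (SE 0.19, adjusted p = 0.548), and the hairpins differed by 1.18 (SE 0.20, adjusted p = 0.00881), although it shares 1136 of 1748 exon bases with the readthrough gene CENPS-CORT. Its call under sh8 was lost when either sh8 library or shlacZ library 2 or 3 was dropped. Of 12 genes of the ATR and replication checkpoint 4 fell under sh4, and 2 when either sh4 library was dropped. CDC25A, the phosphatase that lets cells pass into and through S phase, was at 1085, 1591 and 1439 in the shlacZ libraries, 683 and 691 under sh4, and 898 and 734 under sh8. It was lower in every knockdown library, at -0.98 (SE 0.17, adjusted p = 0.00362) under sh4 and -0.86 (SE 0.16, adjusted p = 0.0231) for both hairpins together. The call for both together was lost without shlacZ library 2 or 3 or the first sh4 library. It was also lost without the variance trend of the test and with a term for the replicate number.

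The remaining repair lists had lower shares of genes called lower under sh4 than the members. Of the end joining genes 4 of 16 fell and 1 rose, of mismatch repair 1 of 7 fell, of base excision repair 4 of 18 fell, and of nucleotide excision repair 3 of 16 fell and 3 rose. Under sh8 the calls were 0, 0, 2 and 0 lower, with 1 nucleotide excision repair gene higher. The 2 became 0 without the second sh8 library and 1 without the first, and also 1 when sh4 library 2 or shlacZ library 2 or 3 was dropped. Without the first sh4 library the calls lower under sh4 were 0, 0, 0 and 1, without the second they were 2, 0, 1 and 0, and without the first shlacZ library the 4 of base excision repair became 7. Dropping shlacZ library 2 gave 2, 1, 1 and 1, and dropping shlacZ library 3 gave 2, 0, 1 and 1. Over all genes tested, the share lower under sh4 also fell without either sh4 library or shlacZ library 2 or 3. It rose without shlacZ library 1. The share lower under sh8 also fell without either sh8 library, sh4 library 2, or shlacZ library 2 or 3. Whether the shares of these repair lists differ from that of the members was not tested.

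Genes of the cell cycle fell in the same libraries. Of 39 S phase replication genes, which build and run the replication fork, 17 fell and 0 rose under sh4 (43.6%), 2 fell under sh8 and 7 fell for both hairpins together, with median log2 fold changes of -0.46, -0.36 and -0.40. Of 35 G2/M genes 9 fell under sh4, 1 fell under sh8 and 0 fell for both together, with medians of -0.32, -0.10 and -0.19. These counts rested on single libraries too, and so did the calls over all genes tested. Of all genes tested, 11.9% were lower under sh4 with all libraries and 17.2% without shlacZ library 1. Without shlacZ library 2 and 3 the share was 7.41% and 7.28%, and it also fell without either sh4 library. Under sh8 the share was 1.54% with all libraries, and 5.75%, 0.409% and 0.519% without shlacZ library 1, 2 and 3. Whether these lists moved more than all genes did was not tested. The 17 S phase genes under sh4 became 3 without the first sh4 library, 8 without the second, 8 without either the second or the third shlacZ library alone, and 26 without the first shlacZ library. The 2 under sh8 became 12 without the first shlacZ library and 1 without any other. The 7 for both hairpins became 0 when shlacZ library 2 or 3, either sh4 library or the second sh8 library was dropped, and 19 with the hairpins' mean from the 3-group fit. The 9 G2/M genes under sh4 became 2 without the second shlacZ library and 3 without the third shlacZ library, and also fell without the first sh4 library. The 1 under sh8 became 3 without the first shlacZ library and was lost without the second sh8 library. The 0 for both became 5 with the mean from the 3-group fit. In the single libraries, the median of the 39 members relative to the control mean was 0.072, -0.022 and -0.043 in the shlacZ libraries, -0.37 and -0.35 under sh4, and -0.14 and -0.31 under sh8. That of the S phase genes was -0.13, 0.13 and -0.0066 in shlacZ, -0.54 and -0.38 under sh4, and -0.29 and -0.44 under sh8. The part that the share of cells in S or G2 phase, or the lower melanocytic markers, had in the members' values was not tested. In bulk RNA, fewer cells that express a gene and less RNA per cell cannot be told apart.

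**Figure D5:**
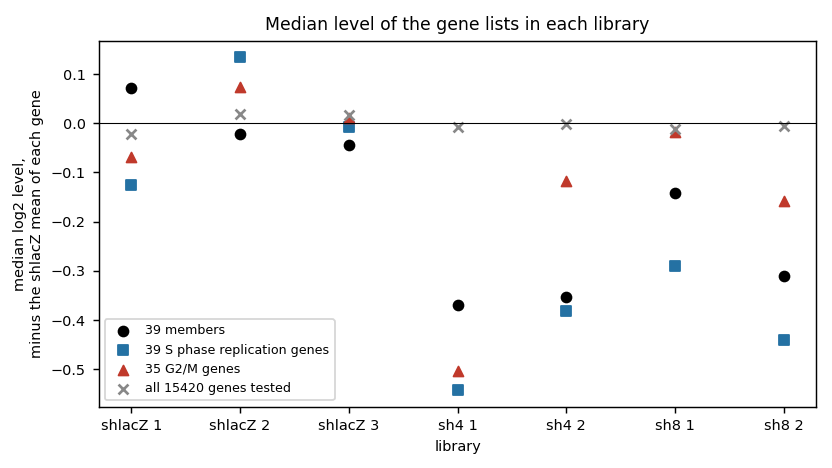
For each library the marks give the median over a gene list of log2(normalized count + 1) minus the mean of each gene over the shlacZ libraries. The members and the S phase genes lie below 0 in all 4 knockdown libraries, the G2/M genes are lowest in the first sh4 library (-0.50), and the median of all genes stays between -0.021 and 0.019.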

How the data were processed

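Total RNA of 7 libraries was depleted of ribosomal RNA and sequenced as read pairs from stranded libraries. According to the methods and the submitters' processing notes, the authors trimmed adapters (Cutadapt), aligned reads to hg38 (STAR) and quantified genes (Salmon), with versions and annotation not given in the sources used here. The authors deposited 1 table of normalized counts, which are counts divided by a size factor per library. This scaling removes any change that most transcripts share. 100% of the values were whole multiples of 1 read within 0.1, which gave the depth. DESeq2, used by the study, and edgeR were not run here, because the table holds normalized and not raw counts. Limma-voom was run on the recovered reads as an alternative.

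Values were tested with limma (3.58.1, R 4.3.3) after taking log2 of the normalized count plus 1, with a variance trend, for 15420 genes whose mean was 10 or more. That scale understates the change of low genes. A Benjamini-Hochberg adjusted p under 0.05 over all these genes made a call. Both hairpins together were compared with shlacZ in a 2-level fit, and each hairpin and sh4 against sh8 in a 3-group fit. The steps were tested on simulated data. The members and lists were chosen with earlier results of these data known. All members are named, and of the 2 lists nearest to them the genes called for both hairpins together or between hairpins, plus GRASLND. Coordinates come from GENCODE release 44, which held 99.9% of the identifiers. Alternatives covered the pseudocount, minimum mean, scaling, variance trend, limma-voom, a replicate block, GC and length, the fold limit and each library left out.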

Additional observations from a re-analysis of the deposited data

Results flagged for a closer look

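BRCA1 and BRIP1 each had 1 of the 4 knockdown libraries far from the others, past the limit of Dixon's test at 95%. For BRIP1 the gap of the first sh8 library (2168 normalized counts) to the nearest other (1525) was 0.902 of the range, and for BRCA1 that of the same library (2747) to the nearest (2381) was 0.836. With 39 members looked at, chance alone flags about 1 in 20. Groups of 2 or 3 libraries were not looked at in this way.

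In sh4 against sh8, 1 of the 39 members (2.56%) was called lower, where 3.33% of all genes tested were. This member, XRCC2, was lower under sh4 than under sh8 by a log2 difference of -0.63 (limma adjusted p = 0.0470, n = 2 and 2, lower in 2 of 2 sh4 libraries than in either sh8 library). The value was called in 4 of 10 other ways of processing and in 1 of 7 fits that each left out a library, with the adjusted p between 0.0232 and 0.293.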

How the results depend on the processing

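No direction of a median or of a named member that passed turned under any alternative, and the number of members called higher stayed at 0. For both hairpins together, the 2 members called lower became 1 with upper quartile scaling, 0 with quantile normalization, without the variance trend and with the fold limit, and 12 when the hairpins' mean was taken from the 3-group fit; leaving out libraries gave 0 to 8. Under sh4, the 14 became 8 without the variance trend and 1 with the fold limit, and 4 to 13 on leaving out libraries. Under sh8, the 1 became 0 without the trend and with the fold limit, and 0 to 1 on leaving out libraries. For sh4 against sh8, the 1 became 0 with no minimum mean, upper quartile scaling, no trend, limma-voom, the GC and length correction and the fold limit, 2 with a minimum mean of 50 and with quantile normalization, and 0 to 3 on leaving out libraries. Quantile normalization moved the medians to -0.20 for both hairpins and -0.25 for sh4. Leaving out libraries moved them to between -0.36 and -0.24 for both hairpins, -0.38 and -0.29 for sh4, -0.31 and -0.14 for sh8, and -0.23 and -0.055 for sh4 against sh8. Calls over all genes tested moved too. Without the variance trend 7.89% were lower under sh4 against 11.9% in the main fit, and 0.188% against 1.54% under sh8. For both hairpins together 0.292% were lower without the trend, against 2.06% in the main fit. That share was 1.67% with upper quartile scaling, 1.68% with quantile normalization and 8.77% with the mean from the 3-group fit. For sh4 against sh8, 4.38% were lower with a minimum mean of 50 and 3.95% with quantile normalization, against 3.33% in the main fit. It was 2.29% with no minimum mean, 3.73% with upper quartile scaling and 1.26% without the trend. With limma-voom it was 3.15%, and with the GC and length correction 3.76%. The causes were not tested.

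The replicate libraries share only a number in the labels, so they were not taken as pairs. The deviations of same-numbered libraries from their group means correlated at -0.078 to 0.337. With 2 libraries per hairpin, the deviations of the 2 are mirror images, so these values cannot decide whether the numbers mark a shared batch. With a replicate block, which leaves out the third shlacZ library for want of a partner, 0 members were lower for both hairpins together (median -0.36), 17 under sh4, 1 under sh8 and 1 for sh4 against sh8. Of all genes tested, 0.0649%, 11.4%, 1.79% and 4.58% were lower in that order.

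Among single members' calls, 44 of 215 values lost the threshold under another processing and 57 of 126 on leaving out a library. Counts in the other lists moved by over 1.5 times in 52 of 376 and 73 of 224. GRASLND under sh4 lost its call only without the second sh4 library, where its log2 fold change was -0.82. For both hairpins together GRASLND was at -0.85 (SE 0.19, limma adjusted p = 0.0402). That call was lost with upper quartile scaling, without the variance trend, with a replicate block and with the fold limit. It was also lost when any single library except the first sh8 library was dropped. With 2 libraries per hairpin, the SE of the members' log2 fold changes under sh4 was 0.11 to 0.26.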
